A study of Homo sapiens with 17 samples.

Results

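The integrated stress response and amino acid genes are a list of 35 genes that encode ATF4, its partner transcription factors, and targets that regulate stress signalling or make and carry amino acids. They were followed in IMR32, a human neuroblastoma line with amplified MYCN, during doxycycline induction of NOTCH3IC, the active intracellular part of the receptor NOTCH3. For each gene the probe set with the highest mean log2(signal + 16) over all arrays was taken. Of the 35 genes, 34 had a probe set annotated to them alone, and 33 of these passed the intensity filter and were tested, among 13675 genes tested in all. GPT2 was not analysed here, and NUPR1, a small stress-induced nuclear protein, fell below the filter.

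The cells were 2 independent clones, c6 and c8, both carrying the inducible construct and both given doxycycline, and each clone and time had 1 array. Late arrays are times 48, 72 and 96 (3 per clone), early arrays are times 4, 8 and 12 (3 per clone), and the start is time 0 (1 per clone). Time 24 of both clones and time 120, which only c6 has (9 arrays against 8 in c8), belong to neither phase. Times are printed as labelled, since their unit is not stated, and no culture was kept without doxycycline after time 0, so NOTCH3IC, doxycycline and time in culture cannot be told apart. Signals are MAS5 intensities from oligonucleotide arrays, and fold changes below are on the log2(signal + 16) scale, which understates changes of dim genes.

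When cells lack amino acids, accumulate unfolded protein or meet other stresses, kinases phosphorylate the translation factor eIF2alpha, most translation slows, and ATF4 protein is made from an mRNA that is then translated better. ATF4 binds DNA with C/EBP partners at composite C/EBP-ATF elements and raises genes for amino acid synthesis, amino acid uptake and feedback control. Because much of ATF4's control is at translation, its mRNA level is not a measure of its protein. In neuroblastoma with amplified MYCN, the serine, one-carbon and glutamine genes of this list are known as highly expressed.

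The C/EBP-ATF element, searched as TGATGNAAN on both strands, was the sequence looked for in the promoter windows that RefSeq gives on build GRCh38.p14, from 250 bases before each start to 50 after it. Windows were found for 27 of the 35 genes, 44 windows in all, since 11 genes had more than 1 start. At least 1 match stood in windows of 7 genes, and 7 of 44 windows (15.9%) held one, against 3.61% of all 35116 windows. The matches are shown with 10 bases on each side, or up to the window's end, with the element in capitals. They are shown because these windows hold the letters searched, and no binding was measured. The list was made of ATF4, its partners and targets, so the higher share is not independent support. None of the 7 genes was called in any comparison below, so the planned display of called genes with the element was empty, and the sequences shown were chosen after the values were seen.
ASNS, chr7:97872458-97872486, minus strand: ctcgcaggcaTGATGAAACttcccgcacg
CEBPG, chr19:33374061-33374089, plus strand: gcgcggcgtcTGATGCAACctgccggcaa
CHAC1, chr15:40953251-40953279, plus strand: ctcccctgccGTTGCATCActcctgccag
JDP2, chr14:75427996-75428024, plus strand: tagccggggcTGATGCAACccgtcccgcc
SLC1A5, chr19:46784893-46784921, minus strand: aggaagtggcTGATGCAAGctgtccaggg
SLC3A2, chr11:62881725-62881748, plus strand: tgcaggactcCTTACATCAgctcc
SLC7A1, chr13:29595663-29595691, minus strand: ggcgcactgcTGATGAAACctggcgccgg

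The element began 68 bases before the start in ASNS, 42 in CEBPG, 210 in CHAC1, 16 in JDP2 and 97 in SLC1A5. In SLC7A1 and SLC3A2 it lay after the start, from bases 8 and 37 of the transcript. In CHAC1 and SLC3A2 the capitals are the reverse complement of the searched letters.

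For 3 genes that did rise, SLC7A5, DDIT4 and STC2, the 250 bases before the start are given. SLC7A5 held an E-box, CACGTG, the letters MYC proteins can bind, 130 bases before the start, and TGGGAA, a core of the motif of the Notch partner RBPJ, 163 bases before it, both in capitals. The E-box stood in 5 of the 44 windows (11.4%) against 7.26% of all windows, and TGGGAA in 7 of 44 (15.9%) against 24% of all windows. The windows of DDIT4 and STC2 held none of the 3 motifs in these bases and are printed without capitals. A match of letters describes the sequence and says nothing of binding.
SLC7A5, chr16:87869508-87869757, minus strand: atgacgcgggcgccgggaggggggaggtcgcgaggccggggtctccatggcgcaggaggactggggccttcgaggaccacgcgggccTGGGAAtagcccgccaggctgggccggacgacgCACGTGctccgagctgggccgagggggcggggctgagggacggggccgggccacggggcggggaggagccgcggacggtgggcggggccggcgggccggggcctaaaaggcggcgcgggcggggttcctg
DDIT4, chr10:72273674-72273923, plus strand: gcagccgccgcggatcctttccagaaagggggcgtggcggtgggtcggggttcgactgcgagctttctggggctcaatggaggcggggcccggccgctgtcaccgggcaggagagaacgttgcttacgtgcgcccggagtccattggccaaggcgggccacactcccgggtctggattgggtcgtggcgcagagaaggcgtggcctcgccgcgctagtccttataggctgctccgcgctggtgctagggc
STC2, chr5:173328415-173328664, minus strand: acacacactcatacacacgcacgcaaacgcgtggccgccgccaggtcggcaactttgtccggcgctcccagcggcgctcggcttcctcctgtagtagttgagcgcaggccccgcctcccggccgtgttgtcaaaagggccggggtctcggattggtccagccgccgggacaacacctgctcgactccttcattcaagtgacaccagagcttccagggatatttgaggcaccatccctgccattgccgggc

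The arrays behaved alike in scale, with median signals of 14.6 to 19.3 in c6 and 15.4 to 18.3 in c8. MYCN, at 4075 to 5493, and GATA3, at 3045 to 4290, were high on all 17 arrays. Of the adrenergic markers, DBH (-2.19 on the log2 scale, limma, adjusted p = 0.000546) and PHOX2A (-0.77, adjusted p = 0.00127) fell and STMN2 (1.23, adjusted p = 0.00119) rose late against start. STMN2 was dim, at 0.8 to 50.9 over all arrays, with 3.7 in c6 and 5.3 in c8 at time 0. ISL1 fell early against start (-0.81, limma, adjusted p = 0.0184) and did not pass late (-0.21), and HAND2 had -0.03 late. The part of these markers in the results below was not tested. Leukocyte markers summed to at most 30.4 and epithelial markers to at most 21.1 on the late arrays. Endothelial markers summed to 27.4 to 53.9 on the late arrays, against 33.7 and 41.7 at time 0. The 6 fibroblast and smooth muscle markers summed to 6350 to 16747 on the late arrays, against 300.0 and 459.4 at time 0, though COL1A2 stayed at or below 19 throughout, and their part in the results below was not tested. NOTCH3 itself ran between 75.2 and 1028, and its target HEY1 between 30.0 and 5491. In such bulk RNA a change in the number of cells of a type and a change in RNA per cell cannot be told apart.

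Across the time course few of the 33 genes changed: SLC7A5, DDIT4 and STC2 rose against time 0, and ALDH1L2 was higher late than early. ALDH1L2 did not pass against time 0. The moderated F test over the time terms called 2 of the 33 genes, DDIT4 and SLC7A5, where it called 6.61% of all genes tested. Late against start, 2 genes rose (SLC7A5 and STC2) and none fell, with 6.94% of all genes called. Early against start, 2 rose (DDIT4 and SLC7A5) and none fell, with 2.01% of all genes called. Late against early, ALDH1L2 alone of the 33 was called, as higher late, with 5.18% of all genes called. Read against these shares, the counts over time, late against start and late against early are near the background, and the early count is above it and rests on 2 genes. The median difference of the 33 was 0.05 late against start on the log2 scale, where that of all genes was 0.02, and -0.06 early against start, where that of all genes was 0.03. With the arrays centred on their medians, the late median of the 33 was -0.02 and that of all genes -0.06. The late and early comparisons share the same 2 start arrays.

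**Figure D1:**
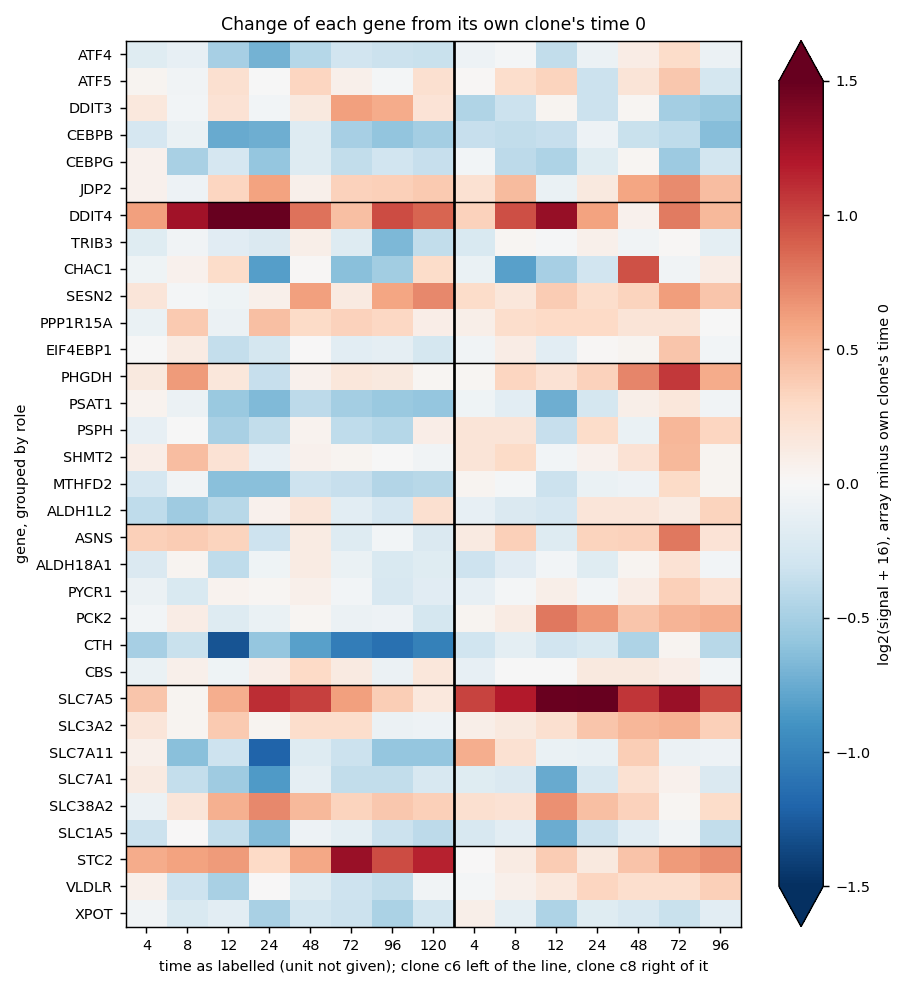
Each row is 1 of the 33 tested genes, grouped by role, and each column 1 array in time order, c6 left and c8 right; colour is log2(signal + 16) minus the same clone's time 0, with red higher. Rows for DDIT4 and SLC7A5 lie above 0 on every array after time 0 in both clones, and most other rows stay pale.

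SLC7A5 encodes the light chain of the LAT1 transporter, which carries leucine and other large neutral amino acids into the cell. In c6 its signal was 246.1, 333.0, 253.2, 365.5, 546.9, 518.0, 386.4, 323.9 and 277.2 at times 0, 4, 8, 12, 24, 48, 72, 96 and 120. In c8 it was 222.2, 464.6, 526.9, 647.5, 673.3, 485.5, 566.7 and 455.7 at times 0 to 96. All 6 late and all 6 early arrays lay above their own clone's time 0, and both clones were highest at time 24. Late arrays averaged 409.4 ± 99.1 in c6 and 502.6 ± 57.4 in c8 (SD, n = 3 each), against 246.1 and 222.2 at time 0. Early arrays averaged 317.2 ± 57.8 in c6 and 546.3 ± 93.0 in c8 (SD, n = 3 each). The clones were unequal early, with a log2 difference from time 0 of 0.33 in c6 and 1.23 in c8. The rise was 0.90 ± 0.18 late (log2, SE; 1.86-fold; limma, adjusted p = 0.00556) and 0.78 ± 0.18 early (1.72-fold; adjusted p = 0.0389). Without the c8 array of time 0 the late difference was 0.58 with adjusted p = 0.286 and the early one 0.46 with adjusted p = 0.553. Without the c6 array of time 0 the early rise was 1.10 with adjusted p = 0.0731, and the early call was also lost, with adjusted p up to 0.0819, without c6 time 4 or 96 or c8 time 4, 8, 12 or 96. Its change over time (adjusted p = 0.0333) did not pass without c6 time 4, 24 or 96 or c8 time 0, 4, 24, 72 or 96, with adjusted p up to 0.210. The single probe set has a suffix for sequence shared by several transcripts.

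DDIT4, also called REDD1, encodes a stress-induced inhibitor of the growth kinase complex mTORC1. Its signal in c6 was 198.0, 311.1, 496.8, 603.7, 666.5, 360.8, 276.7, 405.3 and 377.5 at times 0 to 120. Clone c8 had 253.1, 327.2, 508.9, 647.4, 392.8, 266.1, 444.4 and 360.1 at times 0 to 96. The signal climbed over the early times in both clones, was highest at time 24 in c6 and at time 12 in c8, and was lower again at times 48 to 96, still above time 0 on all 6 late arrays. The early rise was 1.0 ± 0.19 (log2, SE; 2.01-fold; limma, adjusted p = 0.0140), while the late difference of 0.60 ± 0.19 did not pass (adjusted p = 0.0895). Late against early the difference was -0.41 ± 0.18 (adjusted p = 0.260). Without the c6 array of time 0 the early difference was 0.81 with adjusted p = 0.443, without the c8 array it was 1.20 with adjusted p = 0.0872, and without time 12 of both clones it was 0.80 with adjusted p = 0.133. The change over time (adjusted p = 0.0209) did not pass without the time-0 array of c6 (0.108) or of c8 (0.0507).

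STC2 encodes stanniocalcin 2, a secreted glycoprotein induced with the unfolded protein response. It was dim: 6.4, 17, 18.1, 18.9, 11.5, 17.4, 38.8, 28.3 and 33.9 in c6 at times 0 to 120. The c8 arrays gave 13.6, 13.6, 16.2, 22.4, 16.8, 23.8, 30.1 and 31.8 at times 0 to 96. In c6 the late array of time 48 fell within the early range, whereas the late arrays of c8 lay above all its early ones. The late rise was 0.77 ± 0.18 (log2, SE; 1.70-fold; limma, adjusted p = 0.0140), and the early difference of 0.38 ± 0.18 did not pass (adjusted p = 0.345). The gene's other probe set, almost as bright, gave 1.64 late against start, so the 2 differ in size and not in direction. The size also moved with the pseudocount, at 1.46 with a pseudocount of 1 and 0.32 with 64, and both passed. The call was lost without the c6 array of time 0 (0.59, adjusted p = 0.352) and without that of c8 (0.95, adjusted p = 0.0534).

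ALDH1L2, a mitochondrial enzyme that oxidises 10-formyltetrahydrofolate in one-carbon metabolism, was higher on the late than on the early arrays. In c6 its signal was 124.8, 91.8, 81.6, 89.9, 130.9, 143.7, 109.8, 102.2 and 150.2 at times 0 to 120. In c8 it was 82.4, 74.4, 68.4, 66.9, 95.2, 95.3, 90.8 and 108.2 at times 0 to 96. Late arrays lay above all early arrays within each clone and averaged 118.6 ± 22.1 in c6 and 98.1 ± 9.03 in c8, against 87.8 ± 5.42 and 69.9 ± 3.97 for the early arrays (SD, n = 3 each). The late-against-early difference was 0.39 ± 0.10 (log2, SE, 1.31-fold, limma, adjusted p = 0.0253), and late against start it was 0.07 ± 0.14 (adjusted p = 0.857). Early against start the difference was -0.32 ± 0.14 and did not pass (limma, adjusted p = 0.302). All 3 early arrays of each clone lay below its time 0, so the late-against-early difference includes a lower early signal. Its 2 dimmer probe sets gave late-against-early differences of -0.00 and 0.12, and with the mean of its probe sets the difference was 0.17 and did not pass (adjusted p = 0.519). The call was lost on leaving out c6 time 8 (adjusted p = 0.0551), c6 time 48 (0.0655), c8 time 8 (0.0687) or c8 time 96 (0.0778).

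**Figure D2:**
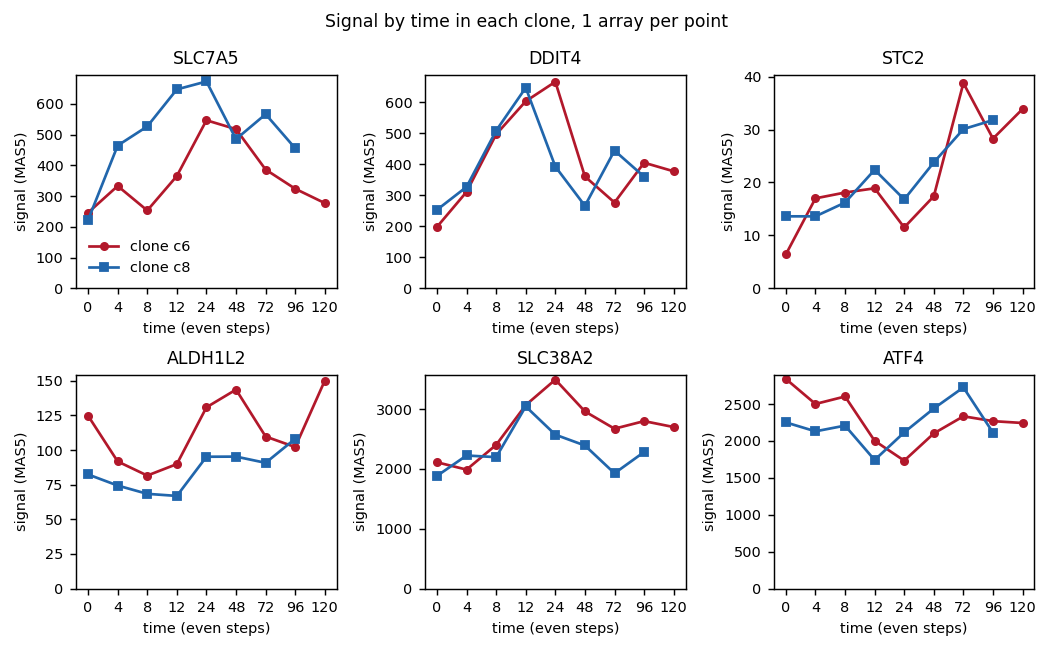
MAS5 signal (y axis, from 0) by labelled time (x axis, even steps) for 6 genes, c6 in red circles and c8 in blue squares, 1 array per point. SLC7A5 and DDIT4 are above time 0 at time 12 in both clones, STC2 is highest at times 72 to 120, and ATF4 is lowest at time 24 in c6 and time 12 in c8.

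Of the 7 transcription factors on the list, 6 were tested and none passed in any comparison. The signal of ATF4 mRNA was 2840, 2501, 2602, 2002, 1733, 2102, 2334, 2268 and 2243 in c6 at times 0 to 120. Clone c8 had 2251, 2130, 2208, 1742, 2116, 2440, 2725 and 2112 at times 0 to 96. The difference late against start was -0.12 with a 95% interval of -0.38 to 0.14 on the log2 scale, so a rise of 2-fold lies outside it. CEBPB, a bZIP factor that ATF4 pairs with, was below its own time 0 on all 6 late arrays, with a late difference of -0.44 ± 0.15 (adjusted p = 0.104). CEBPG, another such partner, had -0.27 ± 0.13 (adjusted p = 0.258), and JDP2, a bZIP repressor above time 0 on all 6 late arrays, had 0.43 ± 0.21 (adjusted p = 0.291). The dimmer probe set of JDP2 went the other way, at -0.06 late against start. DDIT3, also called CHOP, a factor tied to death under prolonged stress, had 0.05 ± 0.21, and ATF5, translated under stress like ATF4, had 0.12 ± 0.17. NUPR1 ran from 1.1 to 19.7 in c6 and from 0.7 to 9.2 in c8, too dim to test, with a mean log2 of 4.38 against the filter at 4.68. Of the 33, the nearest above the filter was CHAC1, at 4.94.

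Among the feedback and stress regulators, DDIT4 was the 1 of 6 called over time. SESN2, a leucine sensor that restrains mTORC1, lay above time 0 on all 6 late arrays, with 60.2 to 90.7 in c6 and 68.5 to 87.6 in c8, against 53.4 in c6 and 51.2 in c8 at time 0, and a late difference of 0.45 ± 0.16 that did not pass (adjusted p = 0.129). PPP1R15A, also called GADD34, which guides the phosphatase that restores eIF2alpha, had 0.22 ± 0.15, EIF4EBP1, a repressor of cap-dependent translation, 0.02 ± 0.12, and TRIB3, a pseudokinase that binds ATF4, -0.16 ± 0.15. CHAC1, which breaks down glutathione, was dim and uneven, at 2.9 to 24.4 in c6 and 3.0 to 48.4 in c8, with -0.02 ± 0.31.

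Of the 6 serine and one-carbon enzymes none passed against the start. PHGDH, the first enzyme of serine synthesis from glucose, was above time 0 on all 6 late arrays, with a late difference of 0.46 ± 0.19 (adjusted p = 0.207). PSAT1, the second enzyme of that route, had -0.21 ± 0.16 and PSPH, the last, -0.01 ± 0.18. The mitochondrial folate enzymes SHMT2 and MTHFD2 had 0.14 ± 0.12 and -0.14 ± 0.12. Of the other amino acid and mitochondrial enzymes, none of the 6 tested passed. CTH, which makes cysteine from cystathionine, came nearest to a fall, with 149.7, 125.9 and 117.2 on the late arrays of c6 and 167.3, 242.4 and 173.4 on those of c8, against 274.3 in c6 and 236.1 in c8 at time 0. Its late difference was -0.63 ± 0.19 (1.55-fold lower, adjusted p = 0.0582), and 1 late array of c8 lay above time 0. CTH was called with the mean of its probe sets and without time 12 of both clones. It was also called without c6 time 12, c8 time 12 or c8 time 72. The other probe set of CTH gave -0.70 late against start. CBS, the enzyme before it, had 0.09 ± 0.09, asparagine synthetase ASNS 0.21 ± 0.21, mitochondrial PEP carboxykinase PCK2 0.22 ± 0.18, and the proline enzymes ALDH18A1 and PYCR1 0.00 ± 0.11 and 0.08 ± 0.12.

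Among the 6 amino acid transporters only SLC7A5 was called against the start. SLC3A2, the heavy chain that SLC7A5 and SLC7A11 need at the membrane, had 0.30 ± 0.13 (adjusted p = 0.236), with 185.0 to 239.3 in c6 and 216.1 to 244.3 in c8 on the late arrays, against 196.9 in c6 and 165.0 in c8 at time 0. SLC38A2, the adaptable glutamine and alanine carrier SNAT2, was 2110, 1987, 2401, 3066, 3491, 2960, 2671, 2798 and 2699 in c6 at times 0 to 120. The c8 arrays gave 1883, 2224, 2196, 3043, 2571, 2391, 1926 and 2282 at times 0 to 96. All 6 late arrays lay above time 0, with highs at time 24 in c6 and time 12 in c8, and the late difference of 0.31 ± 0.11 (adjusted p = 0.121) did not pass, nor did the change over time (adjusted p = 0.0594). Its 3 probe sets gave 0.31, 0.34 and 0.36, and the one used carries a suffix for possible cross-hybridisation.

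SLC1A5, the glutamine carrier ASCT2, was 394.5, 311.1, 397.7, 304.7, 245.3, 372.8, 353.8, 312.0 and 295.6 in c6 at times 0 to 120. In c8 it was 355.6, 299.4, 317.8, 206.1, 280.2, 316.7, 342.1 and 272.0 at times 0 to 96. All 6 late arrays lay below time 0, with a difference of -0.19 ± 0.13 (adjusted p = 0.491). SLC7A1, the arginine and lysine carrier CAT1, had -0.13 ± 0.16, and SLC7A11, the cystine carrier of the xCT system, was dim at 3.3 to 31.0 in c6 and 13.5 to 30.5 in c8, with -0.15 ± 0.21. XPOT, which exports tRNA from the nucleus, lay below time 0 on all 6 late arrays with -0.30 ± 0.11 (adjusted p = 0.146), and VLDLR, a lipoprotein and reelin receptor, had 0.00 ± 0.18.

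Counted over arrays, 7 of the 33 genes (JDP2, DDIT4, SESN2, PHGDH, SLC7A5, SLC38A2 and STC2) were above their own clone's time 0 on all 6 late arrays, against 16.9% of all genes. Another 3 (CEBPB, SLC1A5 and XPOT) were below it on all 6, against 12.7% of all genes. The 95% interval of the difference lay within 2-fold either way for 29 of 33 genes late against start, against 92.7% of all genes, and for 31 of 33 early against start, against 95.4%. On the log2 scale used, precision was thus enough to leave a 2-fold change outside the interval for most members. That scale understates changes of dim genes, CHAC1 and SLC7A11 among them. For such genes the interval does not exclude a 2-fold change of the signal itself.

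**Figure D3:**
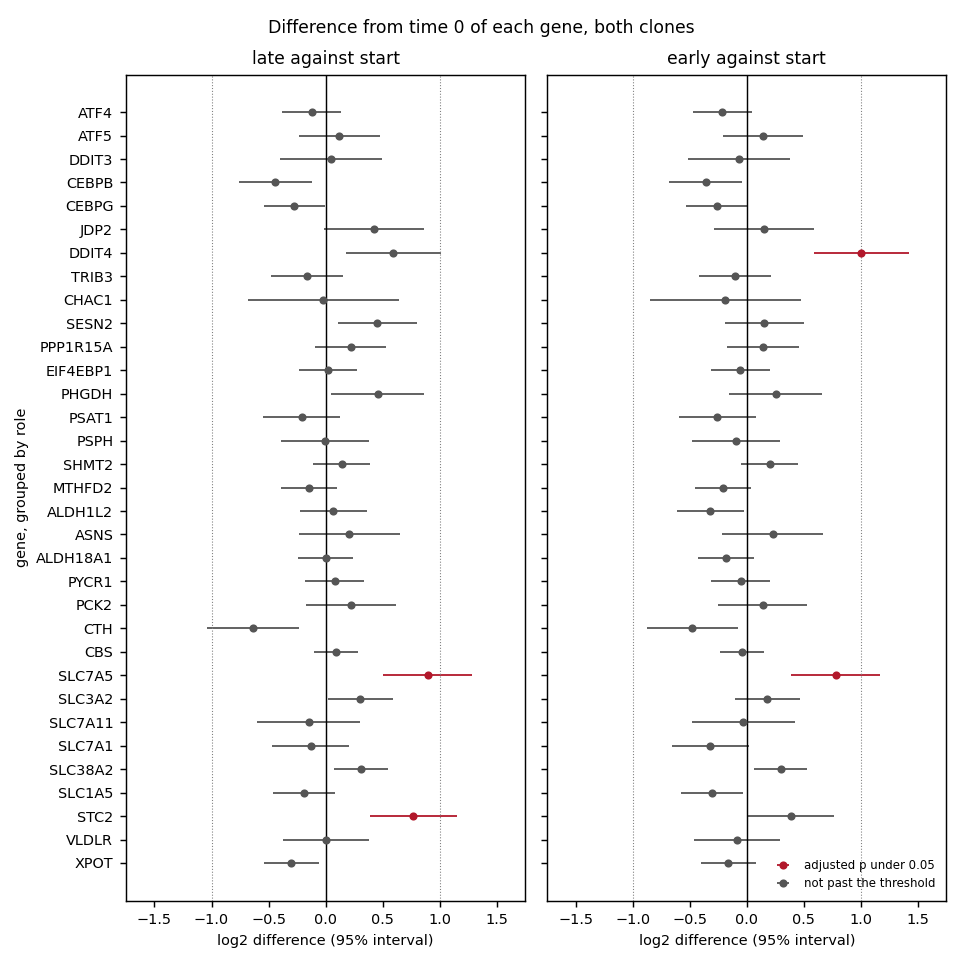
Points are the log2 differences from time 0 of the 33 genes (late left, early right) and bars their 95% intervals from the limma fit; dotted lines mark 2-fold and red marks adjusted p under 0.05. SLC7A5 is red in both panels, STC2 late and DDIT4 early, and 29 late and 31 early intervals lie between the dotted lines.

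The lowest and highest arrays of many genes fell at the same few times. Over the 8 shared times, 12 of the 33 genes were lowest at time 24 in c6 (14% of all genes were), and 9 more at time 12 (11.6% of all genes). In c8, 12 of 33 were lowest at time 12 (14.8% of all genes) and 15 of 33 were highest at time 72 (18.8% of all genes). ATF4, PSAT1, SHMT2, ASNS, SLC7A1, SLC1A5 and XPOT were lowest at time 24 in c6 and at time 12 in c8, and EIF4EBP1, PSPH and MTHFD2 were lowest at time 12 in both. The median of the 33 differences from time 0 was -0.15 at time 12, -0.12 at time 24, 0.07 at time 48, -0.15 at time 72 and -0.22 at time 96 in c6. In c8 it was -0.05, 0.06, 0.18, 0.26 and 0.04 at the same times. The median of all genes at these times was 0.06, 0.08, 0.01, 0.02 and 0.02 in c6. In c8 that of all genes was 0.03, 0.00, 0.02, 0.03 and 0.02. Clone c8 had 26 of 33 genes above time 0 at time 48 and 26, not all the same genes, at time 72. The share of all genes above time 0 was not counted. Each of these times is 1 array per clone, so an array and its time cannot be told apart, and the members are measured on the same arrays and are not independent.

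The clones were then compared in their late-minus-early difference, c6 minus c8. Of the 33 genes 0 passed at an adjusted p under 0.05, as 0% of all genes did. At an unadjusted p under 0.05 there were 4 (PHGDH, CHAC1, ASNS and PSAT1), all lower in c6, where 8.72% of all genes were under that level. PHGDH averaged 1098 ± 42.7 late and 1270 ± 256 early in c6, and 1162 ± 213 late and 759.7 ± 77.2 early in c8 (SD, n = 3 each). The difference of differences was -0.78 ± 0.21 (log2, SE; limma, adjusted p = 0.518). ASNS averaged 580.6 ± 64.3 late and 765.4 ± 13.7 early in c6, and 784.5 ± 176 late and 610.4 ± 119 early in c8, with -0.74 ± 0.22 (adjusted p = 0.528). In c6 the late ASNS arrays lay below all early ones, and in c8 the 2 ranges overlapped. PSAT1 averaged 774.0 ± 45.9 late and 963.6 ± 203 early in c6, and 924.4 ± 72.1 late and 714.6 ± 170 early in c8, with -0.68 ± 0.24 (adjusted p = 0.528). CHAC1, nearest of the 33 to the intensity filter, had -1.28 ± 0.38 (adjusted p = 0.528), and its highest value, 48.4, was the c8 array of time 48.

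The values behind this contrast differ in where each clone peaks. PHGDH in c6 was 1001, 1114, 1566, 1132, 785.1, 1050, 1133, 1110 and 1019 at times 0 to 120, with its peak at time 8. Clone c8 had 661.4, 677.4, 830.6, 771.2, 845.6, 1109, 1397 and 981.1 at times 0 to 96, with its peak at time 72. ASNS in c6 was 594.0, 764.8, 779.4, 752.1, 476.7, 646.4, 518.0, 577.4 and 507.0 at times 0 to 120. ASNS in c8 was 560.4, 619.2, 724.8, 487.2, 708.7, 719.0, 984.2 and 650.2 at times 0 to 96, also highest at time 72. In the sign of this contrast 23 of the 33 genes were negative, with a median of -0.15, where that of all genes was -0.01. The share of all genes with a negative sign was not counted.

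**Figure D4:**
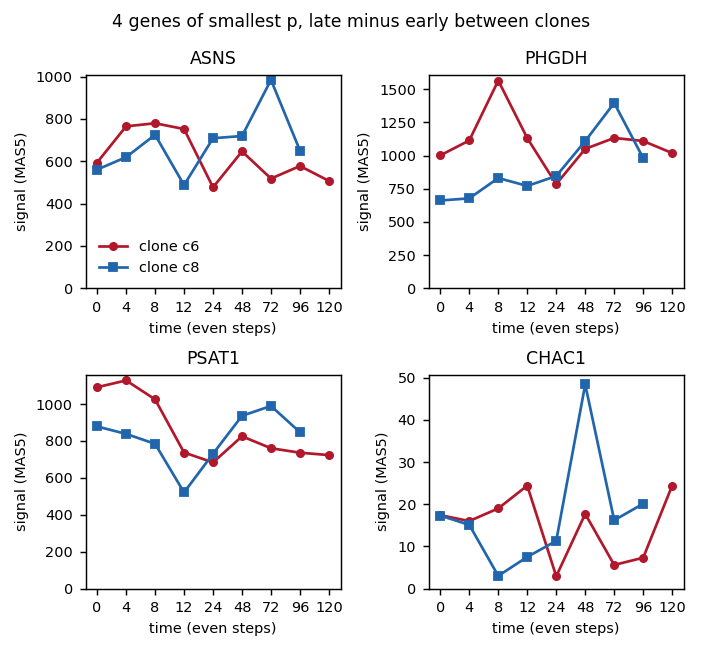
MAS5 signal (y axis, from 0) by labelled time (x axis, even steps) for the 4 genes with the smallest unadjusted p in the clone comparison of late minus early, c6 in red circles and c8 in blue squares. In c8 ASNS, PHGDH and PSAT1 are highest at time 72 and CHAC1 at time 48; in c6 ASNS, PHGDH, PSAT1 and CHAC1 are lowest at time 24.

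In level over the 8 shared times, 7 of the 33 genes differed between the clones, 5 higher and 2 lower in c6, where 21.7% of all genes were called. That count is near the share of all genes, so a clone difference in level is not particular to this list. VLDLR averaged 54.7 ± 10.0 in c6 and 33.2 ± 4.93 in c8 (SD over 8 times) and was higher in c6 at all 8, with a difference of 0.52 ± 0.11 (log2, SE; limma, adjusted p = 0.00358). Its signals were 64.4, 68.8, 48.8, 41.3, 64.4, 54.6, 49.0, 46.3 and 61.6 in c6 at times 0 to 120, and 27.4, 26.6, 29.6, 32.6, 38.2, 35.6, 35.8 and 39.7 in c8 at times 0 to 96. The ranges of the clones did not overlap.

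SHMT2 averaged 1270 ± 167 in c6 and 992.2 ± 126 in c8, with a difference of 0.35 ± 0.07 (adjusted p = 0.00308). In c6 it was 1182, 1269, 1629, 1372, 1086, 1234, 1216, 1174 and 1135 at times 0 to 120. The c8 arrays gave 883.1, 1011, 1080, 860.7, 921.7, 1028, 1241 and 911.6 at times 0 to 96, so that c6 was higher at 7 of 8 times, time 72 being the exception. ALDH1L2, whose values are given above, averaged 109.3 ± 22.0 in c6 and 85.2 ± 14.7 in c8 (0.30 ± 0.08; adjusted p = 0.0190) and was higher in c6 at 7 of 8 times. With a mean over each gene's probe sets, SHMT2 (0.16, adjusted p = 0.125), ALDH1L2 (0.17, adjusted p = 0.141), SLC38A2 (0.21, adjusted p = 0.0583) and TRIB3 (-0.16, adjusted p = 0.270) did not pass.

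XPOT had 1539, 1487, 1310, 1382, 1098, 1271, 1228, 1104 and 1266 in c6 at times 0 to 120. In c8 it had 1250, 1326, 1126, 900.5, 1098, 1057, 991.4 and 1118 at times 0 to 96, so that c6 was higher at 6 of 8 times, equal at time 24 and lower at time 96. The difference was 0.23 ± 0.07 (adjusted p = 0.0267). SLC38A2 averaged 2686 ± 504 in c6 and 2314 ± 371 in c8, with a difference of 0.21 ± 0.07 (adjusted p = 0.0413). The 2 genes lower in c6 were SLC7A5, with 371.6 ± 111 in c6 and 505.3 ± 140 in c8 (-0.42 ± 0.11; adjusted p = 0.0150), and TRIB3. SLC7A5 was lower in c6 at 6 of 8 times and not at times 0 and 48.

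TRIB3 had 65.0, 55.3, 62.3, 56.2, 53.8, 70.0, 55.0, 34.7 and 46.8 in c6 at times 0 to 120. In c8 it had 74.1, 61.1, 76.0, 72.8, 78.8, 71.0, 74.9 and 65.1 at times 0 to 96, higher than c6 at all 8 shared times (-0.29 ± 0.09; adjusted p = 0.0355). The call was lost on leaving out either clone's array of times 0, 8, 24, 48, 72 or 96 for SLC38A2 (adjusted p up to 0.0993), of times 0, 8, 12, 24, 72 or 96 for TRIB3 (up to 0.108) and of times 0, 12, 48 or 72 for XPOT (up to 0.0688). For ALDH1L2 it was lost without either array of time 0 or without c6 time 48 (up to 0.0577). VLDLR, SHMT2 and SLC7A5 passed without any 1 array. The ratio of 3' to 5' ACTB control signal was 1.22 to 1.49 in c6 and 1.56 to 1.70 in c8 with no overlap, while that of GAPDH was 0.997 to 1.12 in c6 and 0.930 to 1.06 in c8, and their part in the clone differences was not tested.

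**Figure D5:**
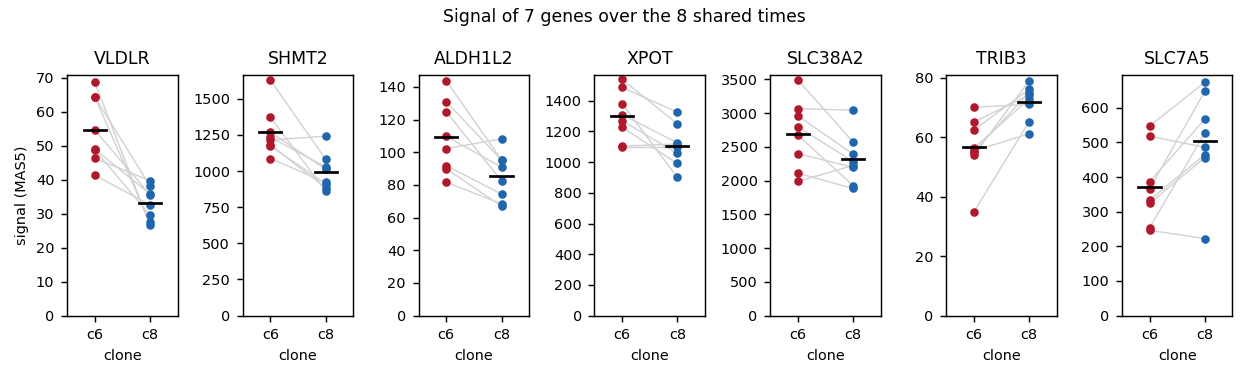
MAS5 signal (y axis, from 0) of the 7 genes called between the clones, c6 left and c8 right, with 1 point per shared time, grey lines joining the same time and black bars at the mean. VLDLR is higher in c6 and TRIB3 lower in c6 at all 8 times, while SLC7A5 starts level at time 0.

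Genes around this pathway were read from 6 further lists. Of all 13675 genes tested, 949 were called late against start (6.94%), 712 higher and 237 lower. Early against start 275 were called (2.01%), 176 higher and 99 lower. The counts of every list below are to be read beside these. Of 17 tested cytoplasmic aminoacyl-tRNA synthetases, which load tRNA and many of which ATF4 induces, none passed late or early against start, with a late median of -0.04. GARS1 (-0.24 ± 0.12), NARS1 (-0.13 ± 0.09) and RARS1 (-0.12 ± 0.08) had the smallest p. Of 14 eIF2alpha kinases and eIF2 factors none passed either, with a late median of -0.07, and PPP1R15B, the constitutive partner of the eIF2alpha phosphatase, had -0.31 ± 0.11 (adjusted p = 0.107). The kinase PERK, gene EIF2AK3, had -0.33 ± 0.13 (adjusted p = 0.178), and EIF2AK1, the heme-regulated kinase, -0.16 ± 0.10.

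Of 21 tested genes of the endoplasmic reticulum unfolded protein response, 1 fell late, DNAJB11, a co-chaperone of BiP, with -0.42 ± 0.10 (log2, SE; adjusted p = 0.0172), and it fell early too (-0.43 ± 0.10; adjusted p = 0.0396). The sensor IRE1, gene ERN1, had -0.33 ± 0.13 (adjusted p = 0.176) and the lectin chaperone CANX -0.13 ± 0.08, while BiP itself, HSPA5, had -0.04 ± 0.09. In the NRF2 response, an oxidative stress programme that shares SLC7A11 with ATF4, 2 of 13 tested genes fell late: the quinone reductase NQO1 (-0.58 ± 0.15; adjusted p = 0.0309) and the thioredoxin reductase TXNRD1 (-0.36 ± 0.10; adjusted p = 0.0319). The glutathione synthesis gene GCLM had -0.58 ± 0.19 and did not pass (adjusted p = 0.0849). The late median of this list was -0.21.

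Of 20 tested one-carbon and other amino acid enzymes outside the 35, 2 fell late and none rose. GLDC, the glycine decarboxylase that feeds one-carbon units from glycine, had -1.01 ± 0.15 (log2, SE; adjusted p = 0.000299), and the arginine synthesis enzyme ASS1 had -0.58 ± 0.11 (adjusted p = 0.00302). ASL, the next enzyme of that route, had 0.45 ± 0.16 and did not pass (adjusted p = 0.140). Of 16 other amino acid transporters none passed late, with SLC1A3, a glutamate carrier, at -0.55 ± 0.18 (adjusted p = 0.0886) and SLC38A1 at -0.24 ± 0.11 (adjusted p = 0.241). SLC6A15, a neutral amino acid carrier of neurons, rose early by 0.60 ± 0.10 (adjusted p = 0.00652) and had 0.23 ± 0.10 late (adjusted p = 0.251).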

How the data were processed

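RNA from 17 samples was hybridised by the authors to human oligonucleotide arrays; GCOS and MAS5 are named in the submitters' processing notes without versions. The deposited intensity values, per the file headers and the values themselves, are linear, and each array's 2% trimmed mean is scaled to 100.01. Of 54675 probe sets 41097 had 1 gene symbol, 1801 several and 11777 none; 41043 matched the RefSeq gene table, giving 19775 genes. Log2(intensity + 16) was fitted with limma 3.58.1 in R 4.3.3 (time and clone terms, intensity trend, Benjamini-Hochberg over 13675 genes above the 40th percentile, threshold 0.05). Clone terms pair arrays by cell source: the c6 minus c8 differences at the 8 shared times correlated with one another across genes at 0.132 to 0.485. Late against early treats neighbouring times as replicates; nothing says arrays came from separate cultures beyond the 2 clones, so the p-values reflect only how these arrays scatter, which may be technical, and the number of arrays limits precision. The fits were run on simulated data with noise independent between arrays, without drift between neighbouring times or effects shared by an array. That run checked the recovery of added differences and could not test such features.

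The genes and lists were chosen with earlier results of these data known. Every gene is named. Those called in any comparison, and the next by p of change over time up to 10, are given on every array. ATF4, PHGDH and ASNS are also given on every array, outside that rule. Other lists show the 3 genes of smallest late p, and HSPA5 was added after its values were seen. Alternatives changed the pseudocount, normalization, filter, probe set rule, trend, clone term and arrays.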

Additional observations from a re-analysis of the deposited data

Results flagged for a closer look

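In 7 genes all late arrays of one clone lay above, and all of the other below, the mean of their own clone's early arrays; the value is the late-minus-early log2 difference in c6 minus that in c8. It was -0.33 for ATF4, -1.28 for CHAC1, -0.78 for PHGDH, -0.68 for PSAT1, -0.74 for ASNS, 0.34 for PPP1R15A and 0.36 for SLC38A2. The interaction test in limma passed none of them, with adjusted p from 0.518 to 0.637. The rule was run on the 33 tested genes only, so no share of all genes stands beside this count.

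VLDLR was below its own time 0 on all 3 late arrays of c6 and above it on all 3 of c8, a difference of -0.58 between the clones. With 1 start array per clone this difference was not tested.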

How the results depend on the processing

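Counts are of the 33 genes called. Change over time called 2 (DDIT4 and SLC7A5): 1 (DDIT4) with median centring, 1 with the mean of the probe sets and 1 without a trend, in both cases STC2 and neither of the 2, 0 with no filter, 0 with no clone term (no replicate block), 0 to 3 on leaving out 1 array, and 1 (SLC7A5) without time 12 of both clones, a setting chosen after seeing the data. Late against start called 2, and 1 (STC2) with no replicate block. It called 3, adding CTH, with the mean of the probe sets or without time 12 of both clones. Leaving out 1 array it called 0 to 4. The 0 was without c8 time 0, and the 4, adding CEBPB and DDIT4, without either array of time 24. Early against start called 2: 1 with median centring, no filter or the mean of the probe sets; 0 without a trend, without the clone block, with phase means or without time 12 of both clones; 0 to 2 leaving out 1 array. Late against early called 1 (ALDH1L2): 0 with median centring, no filter or no replicate block, and 0 to 1 leaving out 1 array; the 1 with the mean of the probe sets and without c6 time 48 was STC2, not ALDH1L2. The clone difference in response called 0 in every setting run. The clone difference in level called 7: 3 with the mean of the probe sets and 3 to 7 leaving out 1 array. Of all settings run, SLC38A2 was lost in 16 (limma, adjusted p up to 0.104), TRIB3 in 15 (up to 0.270) and XPOT in 11 (up to 0.0688). For each of these genes, some of the settings that lost the call left out no array. Over all genes, the counts leaving out 1 array ran from 373 to 1091 late and from 24 to 425 early against start. No difference of a called gene, nor the clone differences of PHGDH, ASNS, PSAT1 and CHAC1, changed sign in any setting run. The calls against the start rest on 2 arrays of time 0; the causes of lost calls were not tested. Genes near the intensity filter, STC2, CHAC1 and SLC7A11 among them, are measured with little signal over background.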
